A study of Mus musculus with 9 samples.

Results

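The subject is the middle of the mouse small intestine set against both of its ends. Scraped mucosa had been taken from 3 equal parts of the intestine, called SI1 next to the stomach, SI2 in the middle and SI3 next to the colon, so SI2 covers much of the jejunum. A gene was called a peak gene if its SI2 signal lay above both SI1 and SI3 in each of 3 diet pools, and a trough gene if it lay below both in each pool. Of 18193 genes on the array, 1716 had such a pattern, 934 as peaks and 782 as troughs. Among the 10977 genes bright enough to be tested, 628 (5.72%) were peaks and 596 (5.43%) troughs, and the other 492 peak or trough genes were not tested. All mice were male C57BL/6J, an inbred laboratory strain, 9 weeks old at the start, and all ate a diet high in fat for 2 weeks. The fat was palm oil in the HF-PO diet, olive oil in HF-OO and safflower oil in HF-SO. RNA from 6 mice of a diet was pooled for each segment and put on 1 array, which gave 9 arrays, and per the labels adhering fat and pancreas had been removed. The pooling leaves no view of single mice, every group ate a high-fat diet, and a low-fat diet was not analysed here.

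The small intestine absorbs nutrients in sequence along its length. The duodenum receives acid, bile and pancreatic juice and takes up iron and calcium, the jejunum is the main site for sugars, amino acids and fat, and the ileum recovers bile acids and vitamin B12 and faces more microbes. Much of this regional programme is held by enterocyte transcription factors such as GATA4, CDX and HNF4 proteins, and most regional genes run as gradients from one end to the other. A gene that is highest or lowest in the middle follows neither gradient.

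The arrays were alike in overall quality. Values are MAS5 signals, a linear intensity per probe set, and their median per array lay between 94.4 and 105.9. The 3' to 5' ratio of the actin control lay between 1.261 and 1.305 in SI1, between 1.185 and 1.273 in SI2 and between 1.201 and 1.25 in SI3. Of the markers that define the tissue, the 7 enterocyte genes had a summed signal of 197991 to 210122 in SI2, within the 186938 to 226926 of SI1 and below or within the 205129 to 228966 of SI3. Of these, 0 passed the test described below and 0 had an unadjusted p under 0.05 by limma, and no gene of any marker list was at 0 on any array. Because each array holds a whole mucosal scraping, fewer cells of a type and less RNA per cell cannot be told apart for any gene below.

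An extreme in the middle was less frequent than one at either end. SI3 was the highest or the lowest segment in every pool for 5140 genes (46.8%), SI1 for 4291 (39.1%) and SI2 for 1224 (11.2%). The SI2 signal was compared with the mean of SI1 and SI3 on the scale of log2(signal + 16) by limma, with the diet pool as a block, since 1 set of 6 mice gave all segments of a pool. A call is an adjusted p under 0.05, and all log2 values below are SI2 minus the mean of both ends unless an end is named. Of 22519 probe sets, 494 (2.19%) were called higher in SI2 and 344 (1.53%) lower. By gene, 274 (2.5%) were called higher and 190 (1.73%) lower. Among the calls, 129 genes (1.18% of those tested) were also peaks in all 3 pools and 100 genes (0.911%) troughs. The other 145 higher and 90 lower calls lay between the ends, or beyond both in only some pools. The pattern and the contrast use the same signals, so a call on a peak gene is not separate support for its pattern. The test also measures only the spread between 3 pools that ate different fats, so any dependence of the segment effect on diet is part of its error. With a pool left out, 2 pools remain, and the called peak genes were 19 without HF-PO, 7 without HF-OO and 8 without HF-SO. In the same order the called trough genes were 12, 14 and 11.

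A stricter reading requires SI2 to pass against each end on its own as well. Against SI1 alone, 794 genes (7.23%) were called higher in SI2 and 859 (7.83%) lower, and against SI3 alone 1306 (11.9%) higher and 1261 (11.5%) lower. All 3 tests were passed by 59 peak genes (0.537%) and 60 trough genes (0.547%). Most middle peaks were shallow. The median peak gene of the 129 lay 1.28-fold beyond its nearer end and the median trough gene 1.33-fold, and only 7 peak and 5 trough genes were 2-fold or more beyond it. The nearer end was SI1 for 90 of the 129 peak genes and SI3 for 39, while trough genes were divided more evenly, with 52 and 48. The genes with the widest gaps, 15 in each direction, are described below, and all 30 of them passed against each end too. They were chosen by the gap to the nearer end in the same signals, so that pass is not separate support. Of the 30, 15 stayed past the threshold without HF-PO, 11 without HF-OO and 15 without HF-SO, and 9 whichever pool was left out. Those 9 were Slc5a12, Dnase1 and Cd36 among the peaks and Slc13a1, Slc40a1, AA467197, Oxct1, Ctrb1 and Atp2b1 among the troughs. Ctrb1 was bright enough to be tested only through SI1, so its low contrast was fixed in advance.

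**Figure D1:**
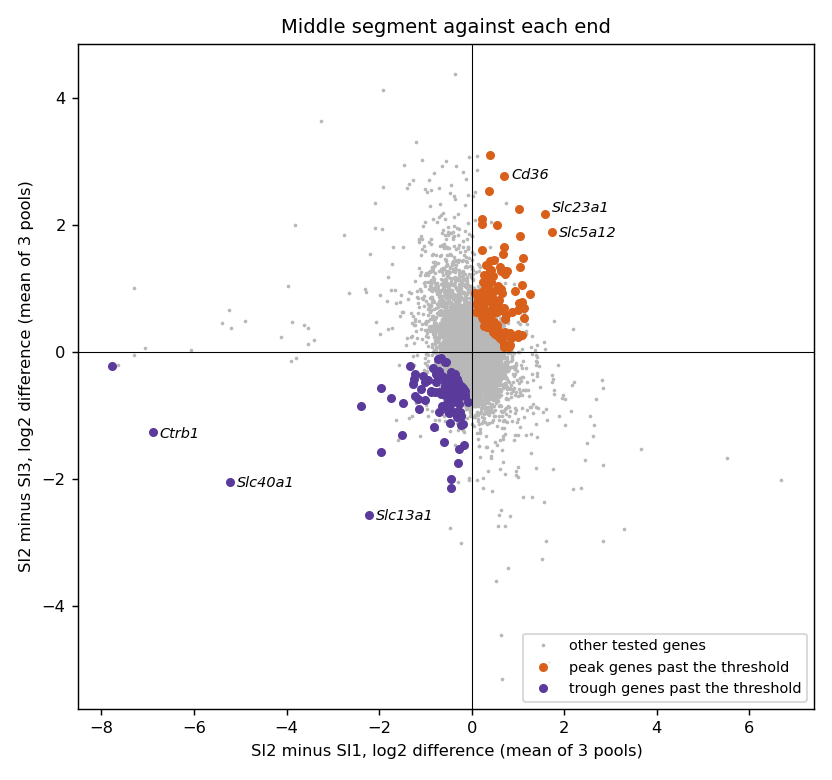
Each point is 1 tested gene; the horizontal axis is SI2 minus SI1 and the vertical axis SI2 minus SI3, both as log2 differences averaged over 3 pools, with the 129 called peak genes and 100 called trough genes in colour. Peak genes lie to the upper right of the origin and trough genes to the lower left, with a median distance from the nearer end of 1.28-fold and 1.33-fold.

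The widest peaks were transporters of the luminal membrane that carry small organic solutes with sodium. Slc5a12, a sodium-coupled carrier of lactate and related monocarboxylates, had signals of 3897.5, 3749 and 3653 in SI2 in the order HF-PO, HF-OO and HF-SO, which is used throughout. The signals were 1193, 1207 and 978.5 in SI1 and 1277, 929 and 869.5 in SI3. Every SI2 array stood far above all 6 arrays of the ends, and the mean gap to the nearer end was 3.25-fold on the scale of signal + 16. The difference was 1.81 (SE 0.10, adjusted p = 0.000608), and a further probe set of the gene was a called peak as well, at 1.78. Slc23a1, the sodium-dependent carrier that absorbs vitamin C, had 4035.5, 4149 and 3442 in SI2. It had 1406, 1348.5 and 1103 in SI1 and 1297, 895.5 and 525 in SI3, where the signal was highest with palm oil and lowest with safflower oil. The SI2 arrays did not overlap the ends, and the difference was 1.87 (SE 0.17, adjusted p = 0.00302).

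Sugar and amino acid carriers showed smaller peaks. Slc5a4b, of the SGLT3 branch of the sodium-glucose transporter family, had 5436, 4807 and 4872 in SI2. The ends had 2501, 2934 and 2479.5 in SI1 and 3318, 2206 and 2343 in SI3. SI2 was above every array of both ends, and the difference was 0.95 (SE 0.13, adjusted p = 0.0142). It was the only called peak gene among 10 tested genes of sugar digestion and transport, of which 3 were called higher and 0 lower, with a median of 0.26 against -0.006 over all tested genes. Against SI1 alone the median of the list was -0.253 and against SI3 alone 0.881, so the list as a whole did not peak in the middle. The other 2 calls were Slc2a2, the facilitated hexose transporter of the basal membrane, at 0.74, and Slc5a4a, a close relative of Slc5a4b, at 0.66. Neither lay above both ends in every pool.

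Of 15 tested transporters of amino acids and peptides, 4 were called higher, all 4 as peaks, 0 were called lower, and the median was 0.165. Slc36a1, a proton-coupled carrier of small neutral amino acids, had 3561, 3242 and 3117 in SI2, against 2009.9, 2194 and 1887 in SI1 and 1263, 941 and 959.7 in SI3. SI2 lay above all arrays of the ends, by 1.17 (SE 0.098, adjusted p = 0.00233). Slc7a8, the light chain of a neutral amino acid exchanger of the basal membrane, had 4718, 5627 and 4766 in SI2. Its signals were 2699.9, 3589.8 and 2931 in SI1 and 2417, 1886 and 1960.2 in SI3, and the difference was 0.99 (SE 0.13, adjusted p = 0.0111). Slc3a2, which encodes the heavy chain that Slc7a8 pairs with, was also a peak, at 0.39 (SE 0.076, adjusted p = 0.0431), with SI2 signals of 8634, 9681.5 and 8106. Slc16a10, which lets aromatic amino acids out across the basal membrane, was a peak at 0.69 (SE 0.11, adjusted p = 0.0232), with SI2 signals of 6356, 5653 and 5047. All 4 passed against each end. With HF-PO or HF-OO left out 1 of the 4 was still called by limma, and with HF-SO left out 0 were. All 4 had an unadjusted p under 0.05 by limma each time. They had been chosen as called peaks in every pool from the same signals, so these p-values are not separate support.

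**Figure D2:**
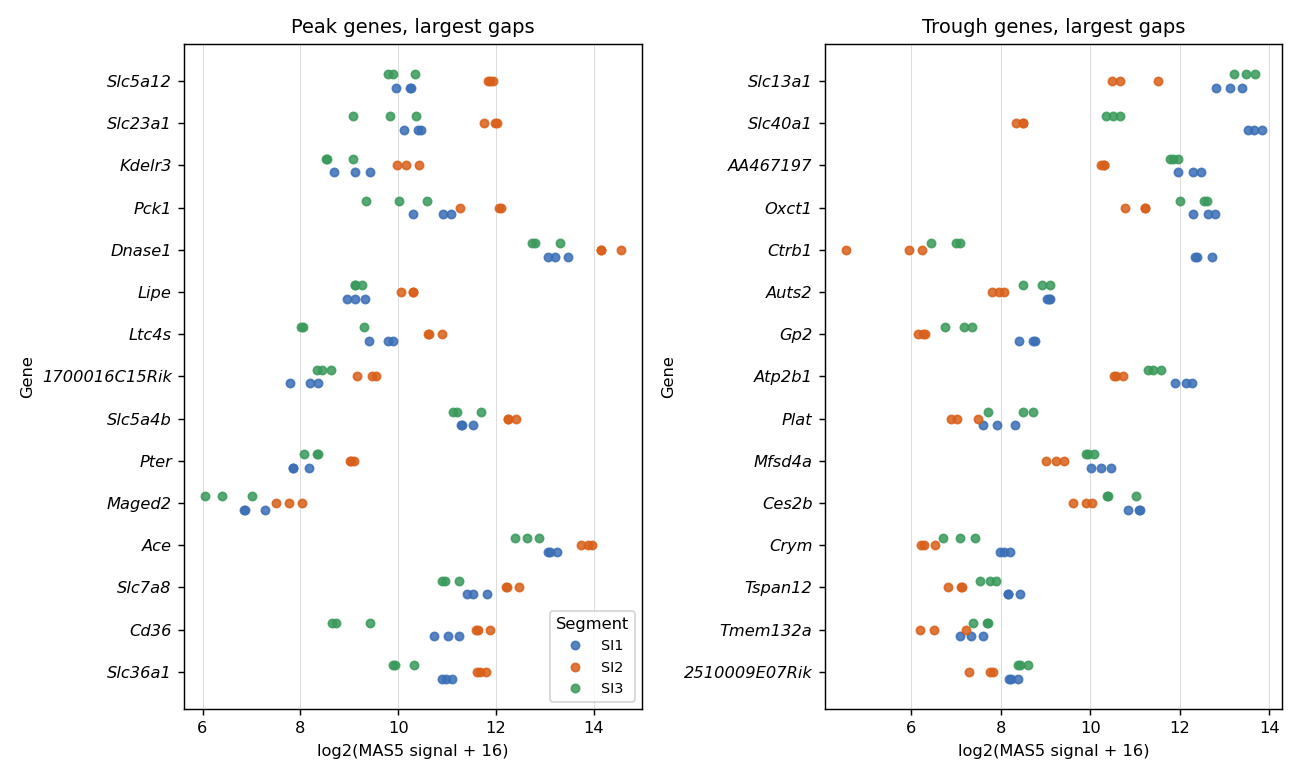
Signals of the 15 peak genes and 15 trough genes with the widest gaps, as log2(signal + 16), with 1 point per array and the segment shown by colour. For each peak gene the 3 SI2 points lie to the right of both ends within every pool, and for each trough gene to the left.

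Pck1, the cytosolic phosphoenolpyruvate carboxykinase that commits carbon to glucose synthesis, peaked in the middle. Its SI2 signals were 4275, 4397 and 2430.0, against 1908, 2153 and 1248 in SI1 and 1514, 1022 and 634 in SI3. Signals in every segment were lowest with safflower oil, and the groups stayed apart over all arrays, with 1.44 (SE 0.13, adjusted p = 0.00305). It was the only called peak gene of 9 tested genes of fructose breakdown and gluconeogenesis, whose median was -0.013. The other call of that list was Adh1, alcohol dehydrogenase, at 1.31, whose SI2 signals did not exceed both ends in every pool.

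The promoter of Pck1 is shown because it was the one with matches to regional factors among those read. These were the promoters of the 3 peak and 3 trough genes with the widest gaps that had an entry in the RefSeq table (assembly GRCm38.p6), as the 250 bases before the annotated start. The sequence is written 5′ to 3′ on the strand of the gene, chr2:173152823-173153072 on the plus strand. Capitals mark 1 match for GATA factors, AGATAA read on the opposite strand, and 1 for CDX, TTTATNG.
Pck1: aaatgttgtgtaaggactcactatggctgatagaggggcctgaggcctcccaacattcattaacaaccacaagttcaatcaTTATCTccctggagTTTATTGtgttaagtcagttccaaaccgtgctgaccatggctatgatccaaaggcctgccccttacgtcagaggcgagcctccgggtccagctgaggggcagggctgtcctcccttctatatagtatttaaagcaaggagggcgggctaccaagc

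Genes of fat handling peaked singly. Cd36, a receptor for long-chain fatty acids, had 3749.9, 3169.7 and 3072 in SI2, 2412, 2063 and 1675 in SI1 and 674.5, 406 and 383 in SI3. The lowest SI2 array lay above the highest SI1 array, and SI3 was far below both. The difference was 1.74 (SE 0.11, adjusted p = 0.000713), made up of 0.71 against SI1 (adjusted p = 0.0137) and 2.77 against SI3 (adjusted p = 7.79e-05). Its 2 other tested probe sets were called peaks too, at 1.69 and 1.32. Acsl3, which activates long-chain fatty acids with coenzyme A, had 1552, 1508 and 1515 in SI2 and a difference of 0.67 (SE 0.091, adjusted p = 0.0144). These were the 2 called peak genes among 24 tested genes of fat uptake and chylomicron assembly, of which 4 were called higher and 0 lower, with a median of 0.213. The other calls were Slc27a2, a very-long-chain acyl-CoA synthetase, at 0.78, and Apob, the structural protein of chylomicrons, at 0.58. Against SI1 alone the median of the list was -0.008, and against SI3 alone 0.352. Lipe, hormone-sensitive lipase, had 1248, 1245 and 1045 in SI2, 479, 541 and 623 in SI1 and 540.2, 537 and 599.5 in SI3. All SI2 arrays were above all others, by 1.07 (SE 0.11, adjusted p = 0.00564). Adipoq, an adipocyte marker, was called higher in SI2 than the mean of the ends, at 0.87, but peaked there in no pool. Its signals were 275.7, 171.4 and 189.2 in SI2, 55.2, 31.8 and 17.3 in SI1 and 311.0, 269.8 and 307.3 in SI3. Only 2 adipocyte markers were tested, and the part of fat tissue in the Lipe signal was not tested.

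Fatty acid oxidation had no called peak gene. Of 23 tested genes of fatty acid oxidation and ketogenesis, 3 were called higher and 0 lower, with a median of 0.187. They were Bbox1, the last enzyme of carnitine synthesis, at 2.00, Acot1, a cytosolic acyl-CoA thioesterase, at 1.24, and the coactivator Ppargc1a at 0.52. Bbox1 was lower in SI2 than in SI1 in every pool, and its SI3 signals were only 124.7, 11.5 and 68.4. Against SI1 alone the median of the list was -0.065, and against SI3 alone 0.548. The respiratory chain, with 23 tested genes, had 0 calls by limma in either direction, 0 genes with an unadjusted p under 0.05, and a median of -0.005.

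Dnase1 and Ace, whose products work at the surface of the gut, were bright peak genes. Dnase1, an endonuclease secreted onto the surface of the gut, had 24075, 18039 and 18185 in SI2. It had 11299.8, 8560.2 and 9377 in SI1 and 10162, 6836 and 7144 in SI3, and every SI2 array exceeded every array of the ends. The difference was 1.18 (SE 0.075, adjusted p = 0.000742). Ace, angiotensin-converting enzyme, which also trims dipeptides from peptides at the brush border, had 15157, 15849 and 13606 in SI2. The ends had 8766, 9669 and 8601 in SI1 and 7517, 6343 and 5371 in SI3, and the difference was 0.97 (SE 0.095, adjusted p = 0.00471). A further Ace probe set was a called peak at 1.22. Of 10 tested brush border peptidases, Ace was the only called peak, 4 were called higher and 0 lower, with a median of 0.191. Against SI1 alone the median of the list was 0.653 and against SI3 alone -0.306, so the list as a whole did not peak in the middle. The other calls were Mme, the endopeptidase neprilysin, at 0.73, Naaladl1 at 0.58 and the aminopeptidase Xpnpep2 at 0.53, none of which was a peak in every pool.

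The promoter of Dnase1, the brightest of the 15 widest peak genes in SI2, is shown as the only other peak promoter read that held a searched motif. It lies at chr16:4036786-4037035 on the plus strand (RefSeq, GRCm38.p6), and capitals mark 2 CCAAT matches.
Dnase1: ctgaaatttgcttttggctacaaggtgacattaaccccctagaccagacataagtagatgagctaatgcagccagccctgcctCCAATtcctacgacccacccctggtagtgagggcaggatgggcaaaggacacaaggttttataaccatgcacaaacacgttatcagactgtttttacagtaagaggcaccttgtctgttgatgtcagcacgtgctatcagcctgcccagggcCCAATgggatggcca

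The remaining peak genes of the 15 widest were less alike in role. Kdelr3, a receptor that returns escaped proteins to the endoplasmic reticulum, had 1367, 1133.5 and 994 in SI2, 541, 396.5 and 669 in SI1 and 522, 350.0 and 357 in SI3. SI2 was above all arrays of the ends, by 1.30 (SE 0.16, adjusted p = 0.0103). Ltc4s, which makes the lipid mediator leukotriene C4, had 1667 ± 190.4 in SI2, 820.5 ± 145 in SI1 and 369 ± 213 in SI3 (SD over 3 pools), and differed by 1.64 (SE 0.20, adjusted p = 0.00968). Pter, a phosphotriesterase-related protein, differed by 0.94 (SE 0.094, adjusted p = 0.00522), with 513 ± 14.1 in SI2. Maged2, of the MAGE family, differed by 1.02 (SE 0.11, adjusted p = 0.00584), with 204 ± 41.3 in SI2 (SD, n = 3 pools for both). Maged2 reached the mean signal needed for testing only through SI2, so its high contrast depends on that filter. The uncharacterised 1700016C15Rik differed by 1.09 (SE 0.12, adjusted p = 0.00663).

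Promoter letters were counted over all called members with an entry, 188 of 229, of which 110 were peak and 78 trough genes. The letters, searched on both strands, were AGATAA for GATA factors, TTTATNG for CDX, CAAAGTCCA for HNF4, TCACNCCAC for the sterol response element, CCAAT, and the longer HNF1 and DR1 elements. The CDX letters were in 11.8% of peak promoters and 3.85% of trough promoters, against 6.41% of the 8899 tested genes with an entry. The GATA letters were in 5.45% and 8.97%, against 6.07%, and the CCAAT letters in 37.3% and 46.2%, against 36%. The other 4 were rare, with HNF4 in 0.909% and 0%, against 0.393%, DR1 in 0.909% and 0%, against 0.0337%, the sterol letters in 0.909% and 2.56%, against 0.944%, and HNF1 in 0% of each group. Of the promoters read singly, those of Kdelr3, AA467197 and Oxct1 held 0 matches and that of Ctrb1 held 1, a CCAAT box. These are shares of letter matches in a window, with no test.

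**Figure D3:**
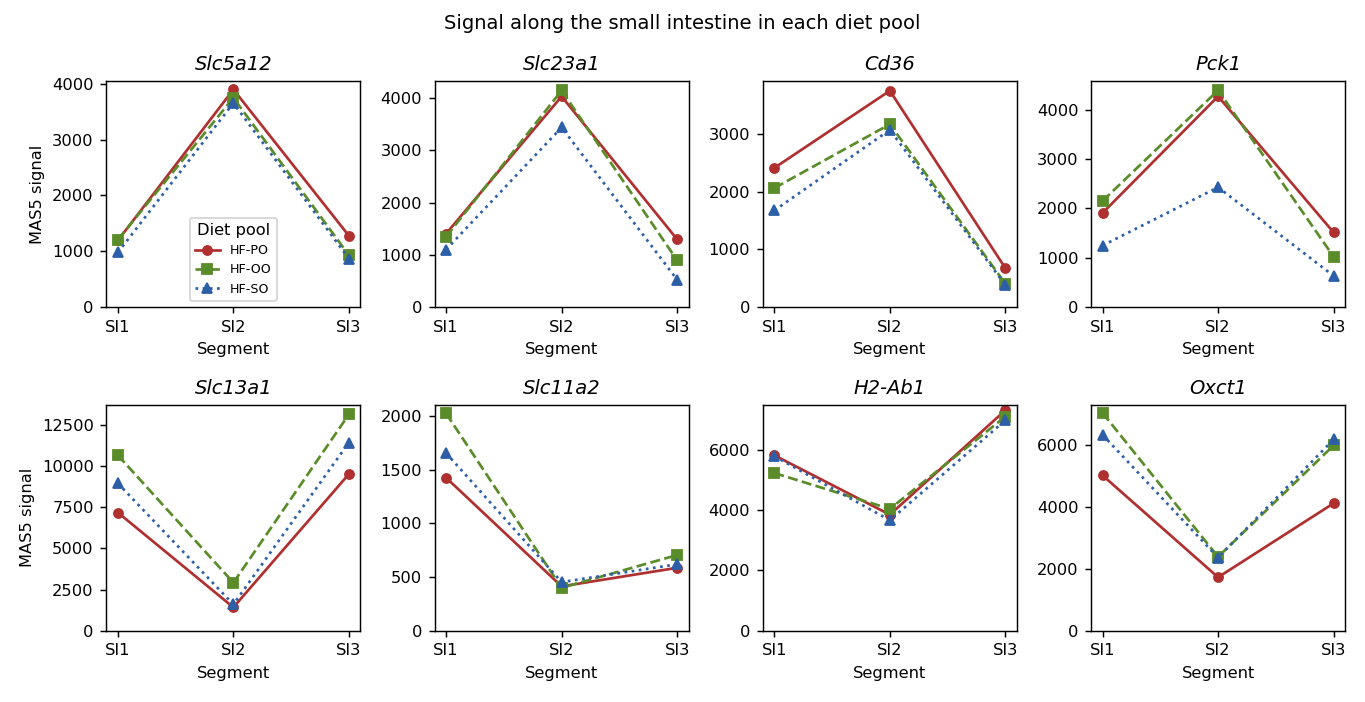
MAS5 signals of 4 peak genes and 4 trough genes in SI1, SI2 and SI3 on a linear axis that starts at 0, with 1 line for each diet pool. In all 3 pools the line of each gene turns in SI2.

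The deepest trough against the nearer end was that of Slc13a1, the sodium-coupled sulfate transporter of the luminal membrane. Its signals were 1419.7, 2917 and 1599 in SI2, 7168, 10641 and 8939 in SI1 and 9501, 13118 and 11413 in SI3. The highest SI2 array lay below the lowest array of either end. The fitted difference was -2.40 (SE 0.12, adjusted p = 0.00039), and the signal lay on average 4.65-fold under the nearer end. Its other tested probe set was a called trough at -1.96.

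Genes for moving metals across the enterocyte were among the troughs. Slc40a1, ferroportin, which exports iron from the enterocyte into blood, had 345, 310.3 and 347 in SI2, 11738, 14514 and 12968 in SI1 and 1604, 1288 and 1443 in SI3. The middle was the lowest segment and SI3 stood between SI2 and SI1 in every pool. The difference was -3.64 (SE 0.11, adjusted p = 2.36e-05), with -5.22 against SI1 (adjusted p = 3.14e-06) and -2.06 against SI3 (adjusted p = 0.000222), and a further probe set gave -3.35. Slc11a2, the divalent metal transporter that brings iron in from the lumen, had 413, 400.0 and 453 in SI2, 1424, 2022 and 1653 in SI1 and 586, 705 and 619 in SI3, a difference of -1.26 (SE 0.10, adjusted p = 0.00222). Its other tested probe set differed by 0.027 and was not called, so the probe sets of Slc11a2 disagree. Atp2b1, a pump that drives calcium out of the cell, had 1467, 1517 and 1688 in SI2, 3804.5, 4923 and 4509 in SI1 and 2505, 3065 and 2693 in SI3, with no overlap. The difference was -1.15 (SE 0.086, adjusted p = 0.00158), and both further probe sets were called troughs. Of 15 tested genes of iron, calcium and zinc handling, 6 were called lower and 0 higher, with a median of -0.258. The 3 calls that were not troughs in every pool were S100g, the calcium carrier calbindin-D9k, at -3.50, Cybrd1, the duodenal ferric reductase, at -1.95, and the metal exporter Slc30a10 at -0.85. Cybrd1 reached the mean signal needed for testing only through SI1, so its low contrast and its place among the 6 lower calls depend on that filter. Against SI3 alone Cybrd1 differed by -0.105 (adjusted p = 0.881 by limma). Of the 3 trough calls, 3 remained when the HF-PO or the HF-OO pool was left out and 2 when the HF-SO pool was. These 3 had been chosen as called troughs in all 3 pools, so this is not separate support.

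Oxct1, the enzyme that lets a cell burn ketone bodies, was another wide trough. It had 1727, 2388 and 2363.5 in SI2, 5017.5, 7033 and 6326 in SI1 and 4116, 5985 and 6178 in SI3, and no SI2 array reached an array of the ends. The difference was -1.41 (SE 0.075, adjusted p = 0.000438), and 2 of its 3 other tested probe sets were called troughs. AA467197 had 1246, 1257 and 1187 in SI2, 3942, 5664 and 4969 in SI1 and 3518, 3664 and 3992 in SI3, with -1.77 (SE 0.11, adjusted p = 0.000625). The SI2 signals of AA467197 were nearly the same in all 3 pools.

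The genes of MHC class II, which present peptides to helper T cells and which enterocytes of the gut can express, were mostly lower in the middle. Of 8 tested genes, 5 were called lower, all 5 as troughs, 0 were called higher, and the median was -0.588. H2-Aa, an alpha chain, had 7536, 7560.3 and 6842 in SI2, 10566, 10058 and 11002 in SI1 and 12841, 12948 and 12415 in SI3. H2-Ab1, its beta chain partner, had 3849.8, 4042 and 3665 in SI2, 5819, 5231 and 5787 in SI1 and 7313, 7101 and 6977 in SI3. The SI2 arrays were the lowest for both. The differences were -0.66 (SE 0.076, adjusted p = 0.00816) and -0.71 (SE 0.077, adjusted p = 0.00663), and for H2-Eb1, the beta chain of the other class II molecule, -0.63 (SE 0.072, adjusted p = 0.00837). These 3 genes lie next to each other among the tested genes of the RefSeq order, and all 3 passed against each end. Cd74, the invariant chain that guides class II molecules through the cell, had -0.55 and H2-DMa, which loads their peptides, -0.67, and both passed against SI3 but not against SI1. The summed signal of the 8 genes was 35358 to 37269 in SI2, 47356 to 50543 in SI1 and 57509 to 60725 in SI3. Markers of other cells that carry class II moved in mixed ways. Of 8 tested B and plasma cell markers, 2 lay above 0 and 6 below, with a median of -0.147, which was -0.092 against SI1 and -0.543 against SI3. Cd79a, a part of the B cell receptor, was a called trough like the class II genes, with 346, 234 and 327 in SI2, 367, 359 and 381 in SI1 and 540.4, 458 and 591.5 in SI3, a difference of -0.54 (SE 0.098, adjusted p = 0.0333). The summed signal of the 9 B and plasma cell markers on the array was 23918 to 25165 in SI1, 15863 to 17352 in SI2 and 9854 to 11989 in SI3. Most of it was Jchain, the joining chain of secreted antibody, with 21963 ± 658, 14327 ± 974 and 8114 ± 780.3 in SI1, SI2 and SI3 (SD over 3 pools), so the sum does not show the B cell genes. Of 10 macrophage markers 1, Csf1r, was called higher at 0.45, and their sum was 15349.7 to 16149 in SI1, 12303 to 13843 in SI2 and 9659 to 11370.2 in SI3. The part of these cells in the class II signal was not tested. With any 1 pool left out, 0 of the 5 passed after adjustment, while all 5 had an unadjusted p under 0.05 by limma. The 5 had been chosen as called troughs in all 3 pools, so these p-values are not separate support.

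Genes of cholesterol synthesis were in part lower in the middle, with the wider difference against SI3. Of 19 tested genes, 7 were called lower and 0 higher, and 6 of the calls were troughs, with a median of -0.431. Hsd17b7, an enzyme of the late sterol steps, had 633, 495 and 484 in SI2, 742, 743 and 644 in SI1 and 953, 962 and 875 in SI3, a difference of -0.59 (SE 0.086, adjusted p = 0.0171), and it alone passed against each end. Fdft1, which makes squalene, had 960.0, 1067 and 1095 in SI2, 1131.5, 1087 and 1295.5 in SI1 and 3001.5, 2815 and 2862.5 in SI3, a difference of -0.81 (SE 0.083, adjusted p = 0.00548). Its SI2 and SI1 values nearly met, and SI3 stood far above both. Mvk, mevalonate kinase, had -0.64, Fdps, which joins the isoprene units, -0.67, Hmgcs1, which starts the pathway, -0.43, and the sterol oxidase Msmo1 -0.42. These 4 passed against SI3 and not against SI1, as did Fdft1. The median over the list was -0.145 against SI1 and -0.732 against SI3. Sqle, squalene epoxidase, was called at -0.61 without a trough in every pool. With any 1 pool left out, 0 of the 6 trough genes passed after adjustment. All 6 were still troughs with an unadjusted p under 0.05 by limma. These 6 had been chosen as called troughs in every pool, so neither their pattern nor these p-values are separate support.

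Other wide troughs belonged to genes of diverse roles. Plat, tissue plasminogen activator, had mean signals of 127 ± 32.2 in SI2, 236 ± 64.4 in SI1 and 316 ± 110.2 in SI3 (SD over 3 pools), a difference of -0.99 (SE 0.17, adjusted p = 0.031). Crym, which binds thyroid hormone in the cytosol, had 66.0 ± 9.58, 257 ± 21.0 and 122 ± 32.9 in the same order, a difference of -1.23 (SE 0.15, adjusted p = 0.0103). Crym reached the mean signal needed for testing only through SI1, so its low contrast depends on that filter. Ces2b, a carboxylesterase that hydrolyses lipid and drug esters, differed by -0.95 (SE 0.17, adjusted p = 0.0319), with 917 ± 139 in SI2. Tspan12, a tetraspanin of the cell membrane, differed by -0.96, the membrane transporter Mfsd4a by -0.89, the nuclear protein Auts2 by -1.02, Tmem132a by -0.82 and 2510009E07Rik by -0.75. The adjusted p-values of these 5 from limma were 0.0026, 0.0143, 0.0122, 0.0367 and 0.0144. The SI2 arrays of Tmem132a overlapped those of SI1 across pools, though not within a pool. For Auts2, 1 of the 2 further tested probe sets was a called trough and the other, at -0.70, was not called.

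Most genes of the exocrine pancreas had high signals in SI1 and low ones in both other segments. Ctrb1, which encodes the digestive protease chymotrypsinogen, had 6687, 5155 and 5289 in SI1, 46.5, 59.6 and 7.4 in SI2 and 113, 121 and 71.8 in SI3. Its difference of -4.08 (SE 0.25, adjusted p = 0.000625) on the log2(signal + 16) scale rests on signals near the pseudocount in SI2. Cpa1, carboxypeptidase A1, had 2.4, 3.2 and 4.0 in SI2 and 10.8, 3.5 and 5.6 in SI3, which are both below the pseudocount. Genes such as Ctrb1 and Cpa1 reached the mean signal needed for testing only through SI1, so their low contrasts were fixed by that filter. The calls and median of this list are therefore not read as a result. The trough of Cpa1 is a difference between values below the pseudocount. The summed signal of the 11 pancreatic markers was 44617 to 58246 in SI1, 5209 to 5669 in SI2 and 5197 to 6691 in SI3, so SI2 and SI3 overlapped. Gp2, a glycoprotein of pancreatic granules and of the M cells over Peyer's patches, had 60.0 ± 4.03 in SI2, 385 ± 52.3 in SI1 and 123.5 ± 28.8 in SI3 (SD over 3 pools), a difference of -1.62 (SE 0.15, adjusted p = 0.00373). Gp2 too reached the mean signal needed for testing only through SI1, so its low contrast depends on that filter. It was the 1 call, a trough, among 6 tested genes of Peyer's patch epithelium, whose median was -0.132. How much of the Ctrb1 and Gp2 signal in SI1 came from pancreatic RNA was not tested.

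Genes for absorbing vitamins and for handling foreign compounds were called higher in the middle more often than lower. Higher calls were also the more frequent over all tested genes, with 2.5% called higher and 1.73% lower. Of 16 tested genes of vitamin absorption and retinoid handling, 4 were called higher and 1 lower, with a median of 0.221 and 2 called peaks, Slc23a1 and Bco1. Bco1, which cleaves beta-carotene to retinal, had 0.73 (SE 0.099, adjusted p = 0.0142) and did not pass against SI1. The folate carrier of the lumen, Slc46a1, had 0.73 and the vitamin B12 receptor subunit Cubn 0.56, while Slc19a1, the reduced folate carrier, had -0.53 and was the lower call. Of 25 tested genes of xenobiotic metabolism, 8 were called higher and 1 lower, with a median of 0.215. The 2 called peaks were the cytochromes P450 Cyp2j6, at 0.77 (SE 0.14, adjusted p = 0.0352), and Cyp3a25, at 0.50 (SE 0.077, adjusted p = 0.0214), neither of which passed against SI1. The calls that did not peak in every pool were Cyp2b10 at 1.24, Cyp2c29 at 1.05, the nuclear receptor Nr1i3, which senses foreign compounds, at 0.90, and the glutathione transferases Gstm3 at 0.82, Gstm1 at 0.67 and Gstk1 at 0.42. A further Gstm1 probe set gave -0.003. Gsta4, another glutathione transferase, was the lower call at -0.67. Over this list the median was -0.206 against SI1 and 0.809 against SI3.

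Genes of bile acid and sterol transport included no called trough. Of 14 tested genes, 5 were called lower than the mean of the ends and 1 higher, with a median of -0.127, which was 0.23 against SI1 and -0.03 against SI3. The lower calls were the ileal genes Slc10a2, which imports bile acids, at -2.24, Fgf15, the hormone that reports their uptake, at -1.60, Nr1h4, the bile acid receptor, at -1.04, and both subunits of the bile acid exporter, Slc51b at -0.67 and Slc51a at -0.51. None was a trough in every pool, and none was called lower than SI1. Fgf15 was called higher in SI2 than in SI1, by 1.67 (adjusted p = 0.03), and all 5 were called lower than SI3. Abcg8, a subunit of the pump that returns plant sterols to the lumen, was the called peak, at 0.40 (SE 0.082, adjusted p = 0.0473), and did not pass against SI1. Of 13 tested genes of fatty acid synthesis and desaturation, 3 were called lower and 1 higher, 0 as peaks or troughs, with a median of -0.333. That median was 0.132 against SI1 alone and -0.475 against SI3 alone. The lower calls were the desaturase Scd2 at -1.01 and the elongases Elovl5 at -0.42 and Elovl6 at -0.41, and the higher call was malic enzyme, Me1, at 1.19.

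Genes facing microbes divided by kind. Of 10 tested antimicrobial and microbe-responsive genes, 4 were called higher and 1 lower, with a median of 0.183. That median was 0.469 against SI1 alone and -0.569 against SI3 alone, so the list as a whole did not peak in the middle. The called peak was Reg3a, a secreted lectin, at 0.56 (SE 0.072, adjusted p = 0.0119), with SI2 signals of 17530.3, 15247 and 14647, and it passed against each end. Its relatives Reg3g at 0.98 and Reg3b at 0.67, and the Paneth cell ribonuclease Ang4 at 0.64, were called without peaking in every pool, and the lower call was Saa1, serum amyloid A, at -1.91. The 16 interferon response genes had 0 calls by limma and 6 unadjusted p-values under 0.05, and 15 of them lay below 0, with a median of -0.206 made of -1.042 against SI1 and 0.592 against SI3. The unfolded protein and stress response, with 21 tested genes, had 0 calls, 6 unadjusted p-values under 0.05 and a median of -0.146.

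Among 25 tested regional transcription factors, 1 was a peak and 1 a trough in every pool, while 11.2% of all tested genes were one or the other. Of the 25, 2 were called higher and 5 lower, with a median of -0.014. Hnf4g, a nuclear receptor of the enterocyte, was the called peak, with 5043, 4152 and 4311 in SI2, 3228, 3077.5 and 2936 in SI1 and 3575, 3628 and 3383 in SI3, a difference of 0.44 (SE 0.078, adjusted p = 0.0301). Ppard, a receptor activated by fatty acids, was the called trough, with 1655, 2323 and 1823 in SI2, 3591, 3828 and 4139 in SI1 and 3043, 2529 and 2504.5 in SI3, a difference of -0.74 (SE 0.13, adjusted p = 0.03), and it did not pass against SI3. The other calls were Osr2 at 0.78 and, lower, Pdx1, a duodenal and pancreatic factor, at -2.29, Nr1h4 as above, Hoxb6 at -0.52 and Foxa1 at -0.45. Of 16 tested clock genes, 3 were called higher and 0 lower, with a median of 0.186. Ciart, a clock repressor, was the called peak at 0.80 (SE 0.098, adjusted p = 0.01), and Dbp at 0.84 and Per3 at 0.42 were called without peaking in every pool.

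**Figure D4:**
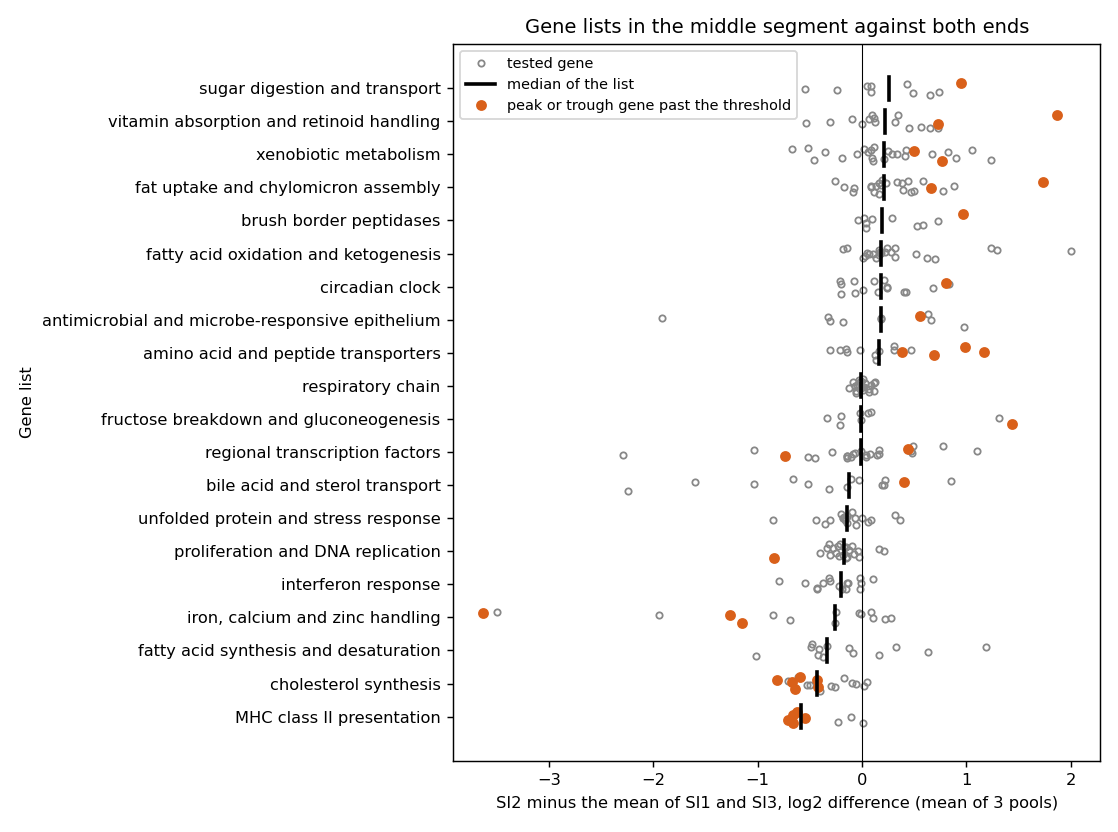
Each open point is 1 tested gene of a list, placed by its log2 difference of SI2 from the mean of SI1 and SI3; black bars are list medians and filled points are called peak or trough genes. Among these 20 process lists, MHC class II and cholesterol synthesis have the lowest medians, at -0.588 and -0.431, and sugar digestion and transport the highest, at 0.26. The sugar list had a median of -0.253 against SI1 alone and 0.881 against SI3 alone. Cell type lists are not drawn.

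Cell composition could be read only from markers. Of 22 tested proliferation and DNA replication genes, 1 was called, Rrm2, a subunit of ribonucleotide reductase, as a trough at -0.85 (SE 0.082, adjusted p = 0.0047), and 20 lay below 0, with a median of -0.176. That median was 0.089 against SI1 alone and -0.515 against SI3 alone. The markers of stem cells (7 tested, median -0.073), goblet cells (9, -0.133), tuft cells (6, -0.052), T and intraepithelial lymphocytes (9, -0.078) and smooth muscle (7, 0.141) had 0 calls by limma. In that order 1, 2, 0, 2 and 1 of them had an unadjusted p under 0.05 by limma. Their medians in the same order were 0.223, 0.303, -0.017, -0.768 and -0.023 against SI1 alone. Against SI3 alone they were -0.318, -0.594, -0.071, 0.713 and 0.395. The 5 Paneth cell markers had 1 call, Ang4, and a median of 0.274, which was 1.543 against SI1 and -0.743 against SI3. Of 13 enteroendocrine genes 2 were called higher, with a median of 0.073. Gip, an incretin hormone of K cells, was a called peak, with 6324, 5591 and 5961 in SI2, 5364, 5179.7 and 4852 in SI1 and 1985, 1277 and 1229.6 in SI3, a difference of 1.11 (SE 0.12, adjusted p = 0.00639), and it did not pass against SI1. Nts, neurotensin, was called at 1.18 without peaking in every pool. The 7 fibroblast and stromal markers had 1 call, Pdgfra at 0.82, and a median of 0.542, and the 5 endothelial markers 1 call, Plvap at 0.52, and a median of 0.437. Against SI1 alone these medians were -0.358 and -0.331, and against SI3 alone 1.442 and 1.26. Summed signals of both lists were highest in SI1 and lowest in SI3. The macrophage list had a median of 0.113, the enterocyte list -0.032, and 4 stomach markers had 1 lower call, Gkn2 at -2.02, and a median of -0.426. The part of these cells in the peaks and troughs was not tested, beyond the sums given beside the class II and pancreatic genes. The 1 tested mast cell marker lay at -0.108 and was not called, the 2 adipocyte markers had a median of 0.675, and 0 erythrocyte markers were tested.

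The size of the contrast was alike in the 3 pools, while the level of the peak genes was often highest with palm oil. The median contrast of the 129 called peak genes was 0.591 with palm oil, 0.607 with olive oil and 0.59 with safflower oil, and that of the 100 trough genes -0.585, -0.599 and -0.668. Agreement between pools is part of how the genes were chosen, so these values only describe them. The SI2 signal was highest in the HF-PO pool for 78 peak genes (60.5%), against 32.5% of all tested genes. The SI3 signal was highest in HF-PO for 81 (62.8%), against 32.7%, and the SI1 signal for 55 (42.6%), against 34.6%. Of the 100 trough genes, 20 were highest in HF-PO in SI1, 21 in SI2 and 25 in SI3. With 1 array for each diet and segment, these shares carry no test.

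Other probe sets of the same genes mostly repeated the pattern. For 58 of the 129 peak genes further tested probe sets existed, 92 in all, of which 84 had the same sign, 58 (63%) were peaks in every pool, against 5.95% of all tested probe sets, and 40 were called. For 40 trough genes there were 66, of which 61 had the same sign, 33 (50%) were troughs in every pool, against 4.78%, and 28 were called. Probe sets of a gene measure the same RNA on the same array and are not replicates. A further 192 probe sets with no gene symbol were peaks, 35 of them called, and 113 were troughs, 19 of them called.

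At its edge the rule rests on small differences. Tbc1d31 was the called peak gene nearest the limit, with an SI2 signal of 685.0 in HF-OO against 684.9 in SI1, and Slc25a36 fell just outside it, with 3033.7 against 3035.1. Among troughs, Cpa1 was the nearest inside, with 3.2 against 3.5 in SI3 of HF-OO, and 1500011B03Rik was just outside, with 106.5 in both SI1 and SI2 of HF-PO.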

How the data were processed

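RNA of 9 pools, 1 per diet and segment, was measured on 1 Affymetrix array each. Each deposited value is the signal intensity of 1 probe set on a linear scale, credited to MAS5 in the submitters' processing notes, with no version given; the 2% trimmed mean is 500 on each array. Detection calls were not used here. Of 45101 probe sets, 64 controls were left out, and 22519 with a mean log2(signal + 16) of at least 6.80, the median, were tested. The brightest probe set stood for a gene, named through the platform annotation (34945 probe sets with 1 symbol, 932 with several, 9160 with none).

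limma 3.58.1 in R 4.3.3 fitted segment and diet pool, with 4 residual degrees of freedom and a prior of 3.12. For each contrast, Benjamini-Hochberg adjustment ran over all 22519 probe sets. The pairing by pool comes from the labels, which give 6 mice to a pool. Genes named are the 15 called peak and 15 called trough genes with the largest gap to the nearer end, list members, and genes at the edge of the rule. The members and the gene lists were chosen with earlier results of these data known. On simulated data for this contrast, with 22519 probe sets, the fit recovered 93 of 100 changes of log2 1 and 37 of 100 of 0.5, with 6 false calls. The alternatives were the pseudocount, the filter, quantile normalization, the block, a variance trend, a stricter threshold, other probe sets and leaving out pools. Tables and plots were made with numpy 2.4.6, pandas 2.3.3 and matplotlib 3.10.9 in Python 3.11.15.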

Additional observations from a re-analysis of the deposited data

Results flagged for a closer look

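In 5 gene lists the median difference of SI2 from the mean of the ends had opposite signs in different pools, and none of these differences was tested, since each diet has 1 array per segment. Fructose breakdown and gluconeogenesis had medians of 0.093 with palm oil, 0.063 with olive oil and -0.218 with safflower oil, a spread of 0.311. Stem cell markers had -0.223, -0.219 and 0.052 in that order, a spread of 0.275. Markers of T and intraepithelial lymphocytes had 0.047, 0.087 and -0.169, a spread of 0.256. The respiratory chain had 0.045, -0.014 and -0.056, a spread of 0.101, and regional transcription factors -0.002, -0.007 and 0.025, a spread of 0.032.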

How the results depend on the processing

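As reported, 494 probe sets were called higher and 344 lower, 268 as peaks and 189 as troughs, or 129 peak and 100 trough genes. Leaving out a pool gave 19 to 67 higher, 34 to 57 lower, 12 to 35 peak and 16 to 31 trough probe sets, and 7 to 19 peak and 11 to 14 trough genes. Of the 30 genes with the widest gaps, 9 stayed past the threshold whichever pool was left out: Slc5a12, Dnase1, Cd36, Slc13a1, Slc40a1, AA467197, Oxct1, Ctrb1 and Atp2b1. Among these, Ctrb1 passed the filter on low signals only through SI1. With no filter on low signals the 6 counts were 31, 46, 21, 20, 12 and 12, and at an adjusted p under 0.01 they were 80, 79, 47, 42, 25 and 26. With a trend in the prior variance they were 1127, 789, 537, 371, 277 and 206. A filter at the 75th percentile gave 975, 597 and 457 for the first 3 counts and 261 and 171 genes. Without the block for diet pool, whose segments share mice, there were 136 peak and 110 trough genes, of which 107 and 88 were shared with those reported. A pseudocount of 1 gave 111 and 93 genes, 64 gave 182 and 135, and quantile normalization 145 and 103. Of 133 genes followed, 0 changed sign under these settings, and 36, 23 and 22 stayed past the threshold without HF-PO, HF-OO and HF-SO. Other probe sets had the opposite sign for Slc11a2 (0.027), Gstm1 (-0.003) and Tbc1d31 (-0.107), and the cause was not tested. Arrays per group, 3, limit the precision, and signals near the pseudocount of 16 have no reliable fold.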

Other observations

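Further peak and trough genes fell outside the rule for the genes described above and were chosen after their values were seen, so they carry their own values and no statement on their groups. Among both peaks and troughs were single genes that act on sphingolipids. Asah2, the neutral ceramidase of the brush border, had SI2 signals of 14654, 15223 and 14619, against 8676, 10003 and 10071 in SI1 and 10197, 9495 and 8549 in SI3, a difference of 0.65 (SE 0.091, adjusted p = 0.0153) by limma. Sgpl1, which cleaves sphingosine phosphate, differed by 0.91 (SE 0.14, adjusted p = 0.0196), and Sphk1, which makes it, by 0.92 (SE 0.16, adjusted p = 0.0289). Sgpp1, which removes that phosphate again, was a trough, at -0.73 (SE 0.12, adjusted p = 0.0228). Asah2 and Sgpl1 passed against each end, and Sphk1 and Sgpp1 did not.

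Some called peaks other than Kdelr3 have a role in the secretory pathway, and the rest of that pathway was not counted. They were the cargo receptor Lman1 at 0.62, the transcription factor Creb3l2 at 0.97 and the vesicle fusion protein Bet1 at 0.55. The exit site protein Sec16b, at 0.49, and Pgm3, which makes sugar donors for glycosylation, at 0.59, were others. Genes of monoamine handling included Maob, monoamine oxidase B, with 9308, 10125 and 8109.7 in SI2 and a difference of 0.83 (SE 0.069, adjusted p = 0.00225), the serotonin transporter Slc6a4 at 0.48 and the dopamine transporter Slc6a3 at 1.45. Of other carriers, the sodium-coupled sugar transporter Slc5a9 differed by 0.79 and the water and glycerol channel Aqp3 by 0.97. Among troughs were enzymes that build the O-glycans of mucins, Gcnt3 at -0.53, Gcnt1 at -0.91 and B3gnt7 at -0.83, and the pore-forming claudin Cldn2 at -1.30. Gcnt1 reached the mean signal needed for testing only through SI3, so its low contrast depends on that filter. All of these were called with 3 pools. Creb3l2, Bet1, Sec16b, Slc6a3, Gcnt1 and Cldn2 did not pass against SI1, and the others of this paragraph passed against each end.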
